A study of Zea mays with 36 samples.

Results

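The transcript levels of 3 maize transcription factor genes, bZIP18 (Zm00001eb296340), bZIP30 (Zm00001eb303220) and C3H11 (Zm00001eb169920), were followed through nitrogen withdrawal and resupply in leaf and root. They were taken by identifier from tables of 43459 genes per tissue, and all 3 were found and tested in both tissues. In the NAM-5.0 assembly of the inbred line B73, RefSeq places bZIP18 at chr6:176808716-176813636, bZIP30 at chr7:19797514-19802248 and C3H11 at chr4:21888384-21909480. These positions were reached through the older gene identifiers that the study pairs with the ones in the tables. RefSeq lists GBF1 as a synonym of bZIP18 and mEmBP-1a as a synonym of bZIP30.

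B73 seedlings grew hydroponically with nitrogen, which was then withdrawn and returned after 24 h, and leaf and root RNA was sequenced. The study's methods describe the withdrawal as the removal of all nitrate salts, with calcium and manganese then given as chlorides. They describe the return as that of nitrates. The 36 libraries comprised 3 replicates at each of 6 time points in each tissue, namely 0 h under normal nitrogen (NN), 0.5, 3 and 24 h of nitrogen deprivation (ND), and 24.5 and 48 h for nitrogen recovery (NR). Per the study's methods, the last sampling was 24 h after nitrogen was returned, and leaf samples were fully developed leaves whereas root samples mixed seminal and crown roots. Each library pooled several plants, and the sources differ on how many. The methods call the replicates biological without saying whether each had its own hydroponic culture, and p-values measure the spread between these libraries. No unstressed plants were sampled at the later times. A contrast with 0 h therefore includes plant age and, at 0.5, 3 and 24.5 h, the hour of the day, which cannot be told apart from the nitrogen treatment. The same holds between later times, with plant age in each contrast. The hour differs as well for 24 h against 3 h and for 24.5 h against 24 h.

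Basic leucine zipper (bZIP) factors bind DNA as dimers through a basic region beside a leucine zipper, and many plant members recognise sequences with an ACGT core. G-box binding factors (GBF) are named for the palindrome CACGTG, the G-box, and EmBP-1 was described in wheat as a factor that binds such elements. C3H proteins carry zinc fingers of the CCCH type, and many members of this family bind RNA. In the yeast one-hybrid network of the study, which tests whether a factor binds a cloned promoter in yeast, bZIP18 bound 48 promoters, bZIP30 bound 42 and C3H11 bound 21. These include promoters of genes for nitrate uptake, nitrate reduction and the glutamate synthase cycle, through which plants take up nitrate and build its nitrogen into amino acids.

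The promoter of bZIP18 was itself a clone in that assay, bound by 25 factors, among them bZIP18 and bZIP30. The first 399 bases of that clone, read from its left primer, hold 2 ACGT cores and no CACGTG. The 300 bases that end the readable stretch, on chromosome 6 of B73, are shown 5′ to 3′ because bZIP18 and bZIP30 both bound this clone, with the ACGT core in capitals.
bZIP18 promoter clone, bases 100 to 399: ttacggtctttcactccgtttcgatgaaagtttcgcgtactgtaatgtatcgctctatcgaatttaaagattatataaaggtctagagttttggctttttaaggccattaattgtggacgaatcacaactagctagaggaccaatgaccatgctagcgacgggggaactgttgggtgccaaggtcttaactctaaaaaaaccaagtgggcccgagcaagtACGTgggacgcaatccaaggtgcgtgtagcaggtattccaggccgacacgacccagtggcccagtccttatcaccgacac
Among the readable clones bound by any of the 3 factors, only that of GOGAT2, a glutamate synthase gene bound by bZIP18 and bZIP30, held the full G-box in its first 399 bases. The 60 bases around it are given with the G-box in capitals.
GOGAT2 promoter clone, bases 90 to 149: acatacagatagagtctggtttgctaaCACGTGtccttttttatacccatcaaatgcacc

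ACGT and CACGTG are their own reverse complements, so a search of a single strand covers both, and every CACGTG also contains an ACGT. ACGT occurred in the first 399 bases of 22 of 43 readable clones bound by bZIP18 (51.2%), 20 of 38 bound by bZIP30 (52.6%) and 10 of 21 bound by C3H11 (47.6%), beside 53 of all 97 clones (54.6%). CACGTG occurred in 5 of the 97 clones (5.15%). These are matches of letters in the readable stretch of each clone, and the rest of each clone was not used here.

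The values are TPM, transcript abundances corrected for gene length and scaled to a fixed sum in each library, so that the read depth behind them is unknown. C3H11 was the most abundant of the 3 genes in both tissues, with a mean of 32.3 ± 7.45 TPM over the 18 leaf libraries and 19.97 ± 2.98 TPM over the 18 root libraries. bZIP18 averaged 13.7 ± 4.19 TPM in leaf and 16.7 ± 4.08 TPM in root, and bZIP30 averaged 7.92 ± 1.42 TPM in leaf and 11.7 ± 1.51 TPM in root (SD, n = 18 libraries each). None of the 3 was at 0 in any library. Within their families, C3H11 had the highest mean of the 5 C3H factors of the network in both tissues, whereas bZIP18 ranked 15 in leaf and 23 in root among 30 bZIP factors, and bZIP30 ranked 24 in leaf and 27 in root.

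Leaf and root were deposited as separate tables, so their levels are set side by side without a test. The share of all genes with leaf and root ranges apart was not counted. C3H11 was higher in all leaf libraries than in the root libraries of the same time at each of the 6 time points, with a ratio of means between 1.25 at 3 h and 2.07 at 0 h. bZIP30 was lower in leaf, with ratios between 0.566 and 0.805 and with ranges that overlapped at 48 h alone. bZIP18 was at similar levels at 0 h, with a ratio of 1.06, but stood at 0.437 of the root level at 0.5 h and 0.664 at 24.5 h, the times at which its leaf range lay wholly below its root range.

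**Figure D1:**
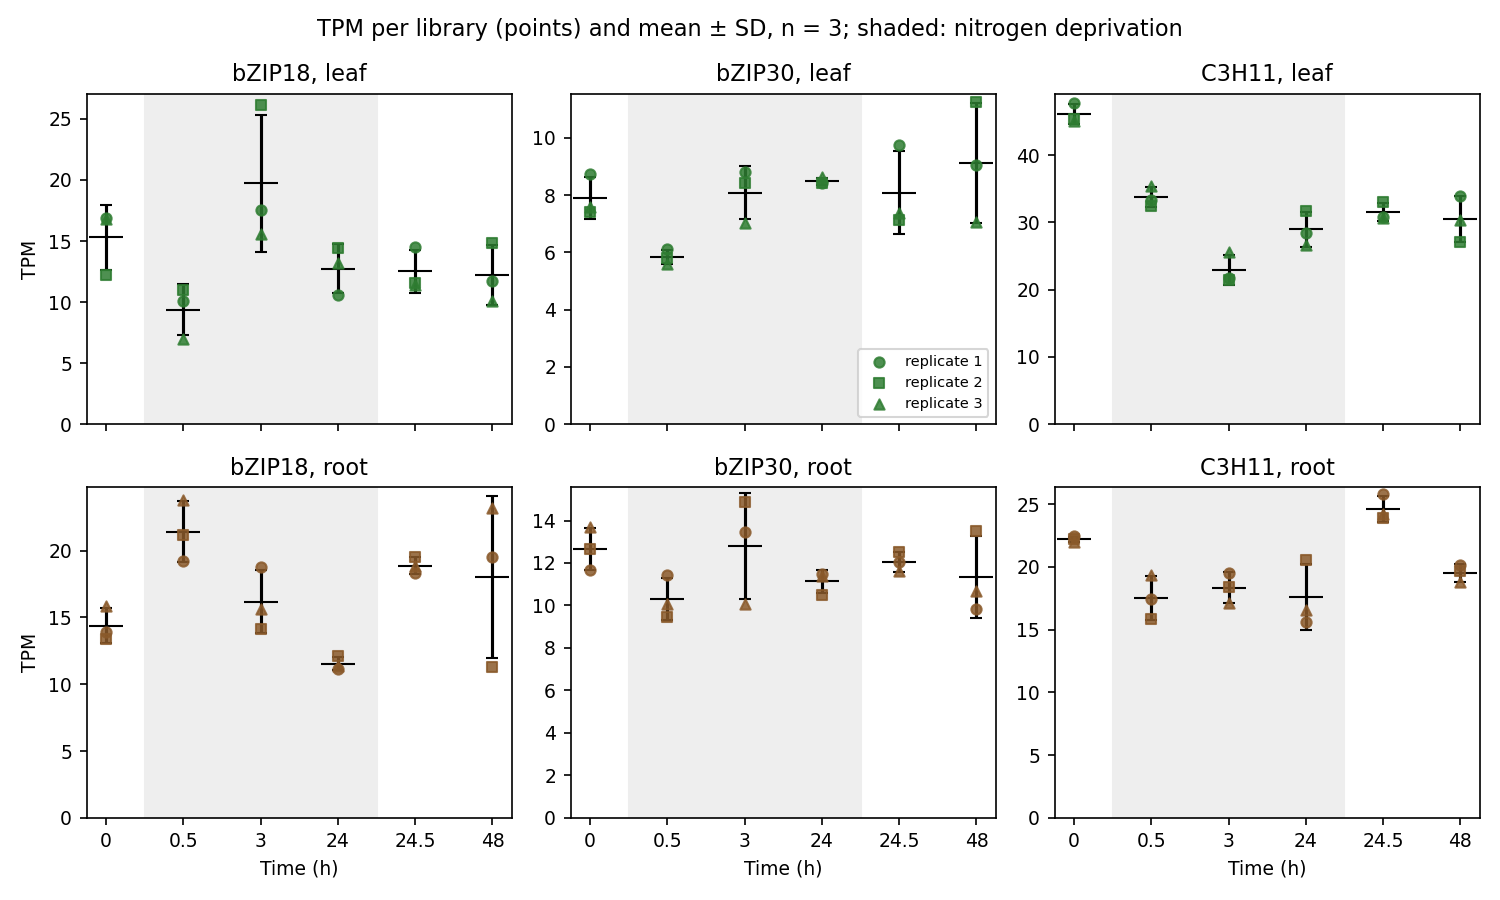
TPM of bZIP18, bZIP30 and C3H11 (columns) in leaf (upper row) and root (lower row) at 6 time points in hours. Points are libraries, bars are mean ± SD (n = 3), and the shaded times are nitrogen deprivation. C3H11 in leaf was highest at 0 h, where its libraries lay between 45.0 and 47.8 TPM, and bZIP18 in root fell into a narrow range of 11.1 to 12.1 TPM at 24 h.

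The libraries checked out as leaf and root by the sums of their markers. The 3 leaf genes LHCB5 (light-harvesting complex), PPDK2 (pyruvate phosphate dikinase) and PDK1 summed to 5536 to 10259 TPM in leaf and 17.1 to 163 TPM in root, and the 3 root genes NRT2.1, NRT2.2 and NAR2.1 (high-affinity nitrate uptake) to 0 to 4.40 TPM in leaf and 8.13 to 454 TPM in root. Taken singly, NRT2.1 and NRT2.2 overlapped between the tissues. Their lowest root values were 0.285 and 0.504 TPM, and their highest leaf values 2.36 and 1.59 TPM. NAR2.1 did not overlap, with at least 4.47 TPM in root and at most 0.461 TPM in leaf. In root, PPDK2 was listed at 0 in 6 of 18 libraries. Root 48 h replicate 2 correlated less with its own replicates (mean r = 0.952) than with 24 h replicate 3 (r = 0.975). In leaf, 8 of 18 libraries were closer to a library of another time point, including all 6 from 24.5 and 48 h.

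C3H11 showed the clearest change of the 3 genes, a lower level in leaf at each time after withdrawal. Its leaf values were 47.8, 45.4 and 45.0 TPM at 0 h, 33.3, 32.5 and 35.5 TPM at 0.5 h, 21.8, 21.5 and 25.6 TPM at 3 h, 28.5, 31.7 and 26.7 TPM at 24 h, 30.8, 33 and 30.7 TPM at 24.5 h and 34.0, 27.1 and 30.3 TPM at 48 h. Every library after withdrawal, the recovery libraries included, lay below every 0 h library, and the 3 h libraries lay below all others. Ranges lay below those of 0 h for 12.3%, 16.9% and 15% of leaf genes at 0.5, 3 and 24 h. At 24.5 and 48 h they did for 10.3% and 8.41%. Between these ends, neighbouring groups in the order of levels (0.5, 24.5, 48 and 24 h) overlapped.

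Across the 6 time points, C3H11 differed in leaf by the moderated F-test of limma (F = 17.3, adjusted p = 0.000222), a test that 42.2% of leaf genes passed, and its F lay at percentile 96.9 of the genes tested. Against 0 h, its log2 fold change, here always of TPM + 1, was -0.44 ± 0.11 at 0.5 h (SE, limma adjusted p = 0.0262), -0.98 ± 0.11 at 3 h (adjusted p = 6.64e-06), -0.65 ± 0.11 at 24 h (adjusted p = 0.00204), -0.54 ± 0.11 at 24.5 h (adjusted p = 0.00438) and -0.59 ± 0.11 at 48 h (adjusted p = 0.00229). At 3 h 10.1% of leaf genes passed that p-value limit with a lower level, and at 0.5, 24, 24.5 and 48 h 1.9%, 4.48%, 5.05% and 4.9% did. The 3 h decrease lay just inside the second limit of the study's call, an absolute log2 fold change above 1, and passed it after median-of-ratios scaling (-1.21), after quantile normalization, with a pseudocount of 0.1 and without leaf 3 h replicate 3 (-1.06). At 0.5 h the adjusted p was 0.0646 to 0.104 without any single one of 5 libraries, namely each of the 0 h libraries and 0.5 h replicates 1 and 2.

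In leaf C3H11 was higher at 24 h than at 3 h, while still below 0 h. The difference from 3 h was 0.33 ± 0.11 on the log2 scale (SE, limma adjusted p = 0.0416, where 8.16% of leaf genes passed with a higher level), and the ranges did not overlap. Ranges lay apart with a higher level for 18.2% of leaf genes. The adjusted p was 0.0515 to 0.162 without any single one of 9 libraries (all of 0 h, 0.5 h replicates 1 and 2, 3 h replicates 1 and 2, and 24 h replicates 1 and 2) and 0.0682 in a fit of these groups alone. After the return of nitrogen no change against 24 h passed the test, and the 95% intervals were -0.11 to 0.35 at 24.5 h and -0.16 to 0.30 at 48 h.

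In root, C3H11 was lower at 0.5 and 24 h of deprivation than at 0 h, and higher 30 min after resupply than before it. Its values were 22.4, 22.2 and 22 TPM at 0 h, 17.4, 15.8 and 19.3 TPM at 0.5 h, 19.5, 18.4 and 17.1 TPM at 3 h, 15.6, 20.6 and 16.6 TPM at 24 h, 25.8, 23.9 and 24.2 TPM at 24.5 h and 20.2, 19.6 and 18.8 TPM at 48 h. The 24.5 h libraries lay above all others, the 0 h libraries came next, and the remaining 4 groups overlapped with their neighbours in order of level. At 24.5 h ranges lay above those of 24 h for 27.9% of root genes, and above those of 0 h for 23.8%. Ranges lay below those of 0 h for 22.8%, 18.7%, 24.4% and 15.9% at 0.5, 3, 24 and 48 h. The gene differed across time (F = 6.91, limma adjusted p = 0.00716, where 47.3% of root genes passed).

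At 24.5 h against 24 h C3H11 rose in root by 0.47 ± 0.10 on the log2 scale (SE, limma adjusted p = 0.00644, where 13.8% of root genes passed with a higher level). After quantile normalization this adjusted p was 0.0560. Against 0 h it fell by 0.33 ± 0.10 at 0.5 h (adjusted p = 0.0447) and by 0.33 ± 0.10 at 24 h (adjusted p = 0.0358), where 8.53% and 12.7% of root genes passed with a lower level. Both calls rested on the scaling, with adjusted p = 0.163 and 0.121 after median-of-ratios scaling, and were lost without any single one of 12 and 5 of the 18 root libraries (adjusted p up to 0.169 and 0.1497), all 0 h replicates among them in both cases.

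The step at resupply and the step at withdrawal each last 30 min, start at the same hour of day and share no library. For C3H11 in root the change at resupply minus the change at withdrawal was 0.80 ± 0.15 (SE, limma adjusted p = 0.00340, where 15.1% of root genes passed in either direction), and it remained past the limit without any single root library. In leaf the same difference was 0.56 and had adjusted p = 0.111, beside 0.499% of leaf genes that passed. Rescaling by median of ratios gave 0.59 in root, with adjusted p = 0.0229.

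The changes of bZIP18 in leaf and root differed in the first 30 min after withdrawal. In leaf it stood at 16.9, 12.2 and 16.8 TPM at 0 h, 10.1, 11 and 7.00 TPM at 0.5 h, 17.5, 26.1 and 15.6 TPM at 3 h, 10.5, 14.5 and 13.2 TPM at 24 h, 14.5, 11.6 and 11.4 TPM at 24.5 h and 11.7, 14.9 and 10.1 TPM at 48 h. In root it stood at 13.9, 13.4 and 15.9 TPM at 0 h, 19.2, 21.2 and 23.8 TPM at 0.5 h, 18.7, 14.2 and 15.6 TPM at 3 h, 11.1, 12.1 and 11.4 TPM at 24 h, 18.3, 19.5 and 18.8 TPM at 24.5 h and 19.5, 11.3 and 23.2 TPM at 48 h. At 0.5 h all leaf libraries were below, and all root libraries above, those of 0 h in the same tissue, while root 48 h replicate 2 sat among the 24 h libraries. Ranges lay apart in that way, lower in leaf or higher in root, for 12.3% of leaf genes and 12.8% of root genes.

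bZIP18 differed across time in both tissues by the F-test, with limma adjusted p = 0.0231 in leaf (F = 4.84) and 0.0187 in root (F = 5.08), percentiles 69.0 and 68.4 of the genes tested. Leaving out leaf 3 h replicate 2 gave adjusted p = 0.0659 in leaf, and leaving out root 24 h replicate 1 gave 0.0545 in root. Within leaf none of the 8 contrasts between time points passed an adjusted p of 0.05, and the smallest was 0.0650, for 24 h against 3 h (-0.57 on the log2 scale). That contrast passed without leaf 0.5 h replicate 3 (adjusted p = 0.0482) or leaf 3 h replicate 3 (adjusted p = 0.0463). At 0.5 h against 0 h the log2 fold change was -0.66 ± 0.21 in leaf (SE, adjusted p = 0.0809) and 0.54 ± 0.18 in root (adjusted p = 0.0609).

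The difference between the tissues at 0.5 h did pass, in a fit added after the contrasts within each tissue were seen. Its p-value is therefore not independent of them. In a joint fit of 21438 genes tested in both tissues, the leaf change minus the root change of bZIP18 was -1.20 (95% interval -1.79 to -0.61, limma adjusted p = 0.0239), a limit that 2.37% of genes passed. The adjusted p was 0.0501 to 0.0779 without any single one of 6 of the 36 libraries, namely leaf 0 h replicates 1 and 3, leaf 0.5 h replicate 3, root 0 h replicate 2 and root 0.5 h replicates 2 and 3. At the later times its differences between tissues did not pass, lying between -0.64 and 0.17, although the one at 48 h did so without root 48 h replicate 2 (-0.84, adjusted p = 0.0343).

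After resupply bZIP18 rose in root, to 18.9 ± 0.61 TPM at 24.5 h, against 11.5 ± 0.49 TPM at 24 h (SD, n = 3 each). This was 0.66 ± 0.18 on the log2 scale (SE, limma adjusted p = 0.0213), and the ranges lay apart, as they did with a higher level for 27.9% of root genes. The adjusted p was 0.0696 after median-of-ratios scaling, which shifted the median change of all root genes in this contrast by -0.11, 0.0998 after quantile normalization, and 0.0503 to 0.0681 without any single one of 24 h replicates 1 and 3 and 24.5 h replicates 2 and 3.

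Root 48 h replicate 2, the library that stood apart, decided how many root contrasts of bZIP18 passed. With it, 1 of 8 contrasts passed an adjusted p of 0.05, and without it 6 did. Leaving it out raised the calls of other genes as well. At 48 h against 24 h, targets called rose from 3 to 11 for bZIP18, from 3 to 9 for bZIP30 and from 0 to 4 for C3H11. The share of all root genes that passed without this library was not counted. Without that library the log2 fold change of bZIP18 was 0.54 at 0.5 h against 0 h (limma adjusted p = 0.00590), 0.37 at 24.5 h (adjusted p = 0.0299) and 0.54 at 48 h (adjusted p = 0.0109), and it was 0.83 at 48 h against 24 h (adjusted p = 0.000977), where the value with the library was 0.55 (adjusted p = 0.0902). The part of this library in the other results was not tested beyond leaving it out. Without root 48 h replicate 3 the number of bZIP18 contrasts that passed was 2, and it was 0 without any single one of 24 h replicates 1 and 3 and 24.5 h replicates 2 and 3.

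No contrast of bZIP30 passed the test in either tissue. Its leaf values were 8.72, 7.40 and 7.57 TPM at 0 h, 6.11, 5.81 and 5.59 TPM at 0.5 h, 8.80, 8.43 and 7.04 TPM at 3 h, 8.41, 8.42 and 8.62 TPM at 24 h, 9.75, 7.14 and 7.37 TPM at 24.5 h and 9.04, 11.3 and 7.07 TPM at 48 h. Only the 0.5 h libraries stood apart from the others, below them, in leaf. At 0.5 h 12.3% of leaf genes had ranges below those of 0 h. In root the 18 values ran from 9.45 to 14.9 TPM with a median of 11.5 TPM, and groups next to each other in order of level overlapped. Between times, all libraries at 0.5 h and at 24 h lay below those at 0 h, and all at 24.5 h lay above those at 24 h, and none of these contrasts had an unadjusted p under 0.05. Ranges lay apart in the same directions for 22.8%, 24.4% and 27.9% of root genes.

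bZIP30 did not pass the F-test in leaf (F = 2.99, limma adjusted p = 0.0847) or root (F = 1.23, adjusted p = 0.394). Leaving out leaf 48 h replicate 3 alone brought the leaf value past the limit, to adjusted p = 0.0286. The leaf value at 0.5 h against 0 h was -0.38 ± 0.16 on the log2 scale (SE, adjusted p = 0.176), and over all 8 contrasts the log2 fold changes lay between -0.38 and 0.17 in leaf and between -0.27 and 0.11 in root. The 95% intervals of these contrasts reached no further than -0.71 in leaf and -0.57 in root. Its coefficient of variation over 18 libraries, 17.96% in leaf and 12.9% in root, lay at percentiles 20.3 and 11.9 of the genes tested.

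In sum over 8 contrasts and 3 genes, 6 of 24 contrasts in leaf and 4 of 24 in root passed the adjusted p-value, and 9 and 8 had an unadjusted p under 0.05. Per contrast, 0.0344% to 35.1% of leaf genes and 5.12% to 21.2% of root genes passed the adjusted p-value. The contrasts share libraries and are not independent. With the added fold limit no contrast of limma was called in either tissue, beside 0.0258% to 13.7% of genes called per contrast in leaf and 0.987% to 5.19% in root.

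**Figure D2:**
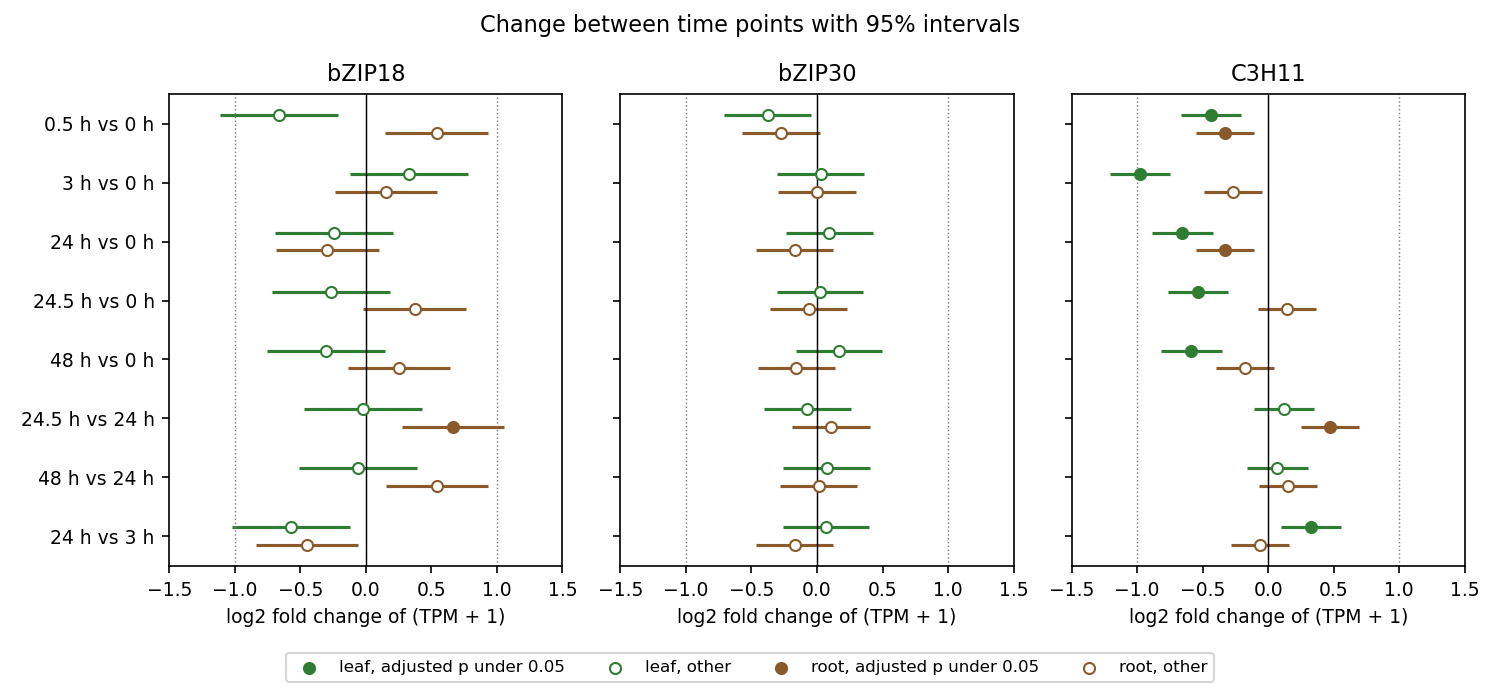
Log2 fold change of TPM + 1 with 95% intervals for 8 contrasts (rows, later time first) of bZIP18, bZIP30 and C3H11, with leaf in green above root in brown. Filled points passed an adjusted p of 0.05 and dotted lines mark a log2 fold change of 1 in each direction. The leaf points of C3H11 lie below 0 at all 5 times against 0 h, the lowest at -0.98, and no point reaches a dotted line.

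The tissues also differed for C3H11 in the joint fit, which was added after the contrasts were seen. Its leaf change minus its root change was -0.71 at 3 h (95% interval -1.003 to -0.43, limma adjusted p = 0.000559) and -0.68 at 24.5 h (-0.97 to -0.39, adjusted p = 0.00316), with 20.3% and 12.5% of genes past that limit, and both remained past it without any single library. At 48 h the difference was -0.41 (adjusted p = 0.0539), and it passed after either rescaling (-0.71 with median of ratios and -0.65 with quantiles). At 0.5 and 24 h the differences did not pass (95% intervals -0.40 to 0.18 and -0.61 to -0.04), beside 2.37% and 2.62% of genes that did, and 13% did at 48 h. bZIP30 showed no tissue difference that passed, with values between -0.10 and 0.33.

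**Figure D3:**
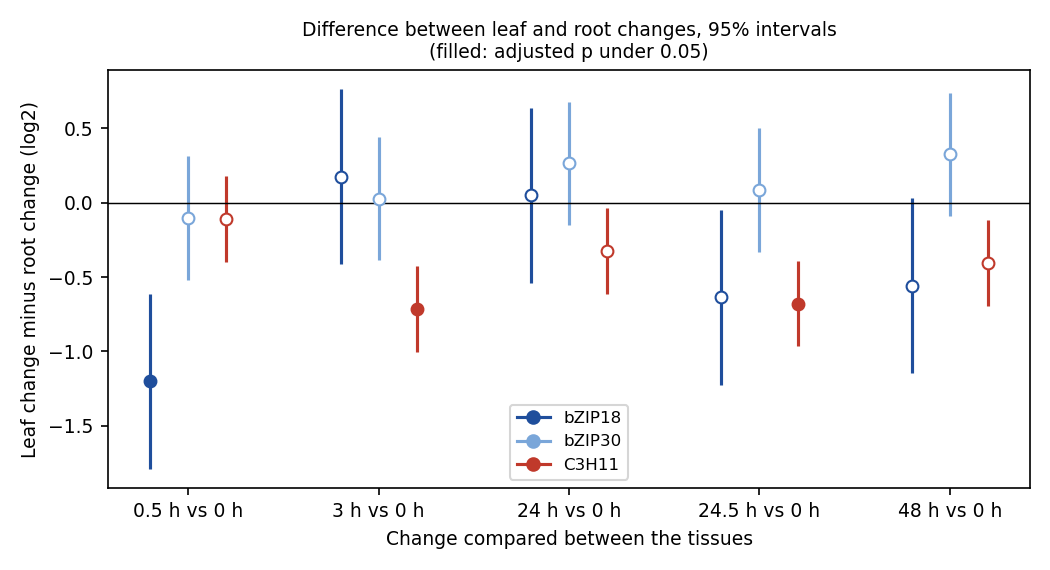
Leaf change minus root change on the log2 scale, with 95% intervals, at 5 times against 0 h for bZIP18 (dark blue), bZIP30 (light blue) and C3H11 (red). Filled points passed an adjusted p of 0.05, namely bZIP18 at 0.5 h (-1.20) and C3H11 at 3 h (-0.71) and 24.5 h (-0.68).

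bZIP18 and bZIP30 bound largely overlapping sets of promoters, and the ratio of their transcripts varied between libraries. In leaf the ratio of bZIP18 to bZIP30 TPM averaged 1.94 ± 0.28 before withdrawal, then 1.60 ± 0.32, 2.44 ± 0.59 and 1.502 ± 0.23 at the 3 deprivation times, and 1.56 ± 0.07 and 1.35 ± 0.07 at the recovery times (SD, n = 3 each). In root it averaged 1.14 ± 0.07 before withdrawal, then 2.098 ± 0.36, 1.299 ± 0.31 and 1.04 ± 0.10 during deprivation, and 1.57 ± 0.05 and 1.67 ± 0.72 in recovery. In root the 3 libraries at 0.5 h, with ratios of 1.69 to 2.36, lay above all 0 h and 24 h libraries, and so did those at 24.5 h. This ratio was not tested.

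The genes whose promoters the 3 factors bound were taken as fixed lists. The lists of bZIP18 and bZIP30 share 39 genes, 81.2% of the first and 92.9% of the second, and that of C3H11 shares 14 genes with bZIP18 (66.7% of its own) and 9 with bZIP30 (42.9% of its own). The counts below are therefore not independent between lists. In leaf, 11 of 34 tested bZIP18 targets, 8 of 31 bZIP30 targets and 8 of 17 C3H11 targets were called in at least 1 of the 5 contrasts with 0 h, beside 17.8% of all genes. In root, 17 of 41, 15 of 35 and 10 of 19 were called, beside 11.2% of all genes. Of all tested network genes, from which these lists come, 66 of 291 (22.7%) were called in leaf and 103 of 338 (30.5%) in root, and the lists were not tested against the network. A gene was called here at an adjusted p under 0.05 with an absolute log2 fold change above 1.

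The leaf calls among the targets were mostly decreases at 3 h. Of the bZIP18 targets 1 was higher and 8 lower at 3 h, of the bZIP30 targets 2 were higher and 5 lower, and of the C3H11 targets 1 was higher and 4 lower, beside 8.55% of leaf genes called higher and 5.17% called lower. After median-of-ratios scaling these counts were 0 and 11, 1 and 8, and 0 and 5, and after quantile normalization they were 0 and 10, 1 and 7, and 0 and 3. Without leaf 0 h replicate 2 the C3H11 targets called numbered 3 in all. The median log2 fold change at 3 h was -0.17 for bZIP18 targets, 0.08 for bZIP30 targets and -0.09 for C3H11 targets, beside 0.19 over all leaf genes. Of the 291 tested network genes, 22 were called higher and 30 lower at 3 h, with a median of 0.02.

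In root the calls among targets at 24.5 h against 0 h were mostly increases. They numbered 9 higher and 1 lower for bZIP18, 8 and 1 for bZIP30 and 6 and 0 for C3H11, beside 2.99% of root genes called higher and 2.21% called lower, and the list medians were 0.37, 0.37 and 0.34, beside 0.05 over all root genes. Against 24 h, 8 bZIP18 targets, 6 bZIP30 targets and 5 C3H11 targets were higher at 24.5 h and none lower, beside 2.9% and 0.644% of root genes. The network leaned the same way. Of its 338 tested genes, 41 were called higher and 23 lower against 0 h (median 0.12), and 37 and 3 against 24 h. bZIP18 is itself in the target lists of bZIP18 and bZIP30. At 24.5 h against 0 h its own change, 0.37, is the median of both lists.

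**Figure D4:**
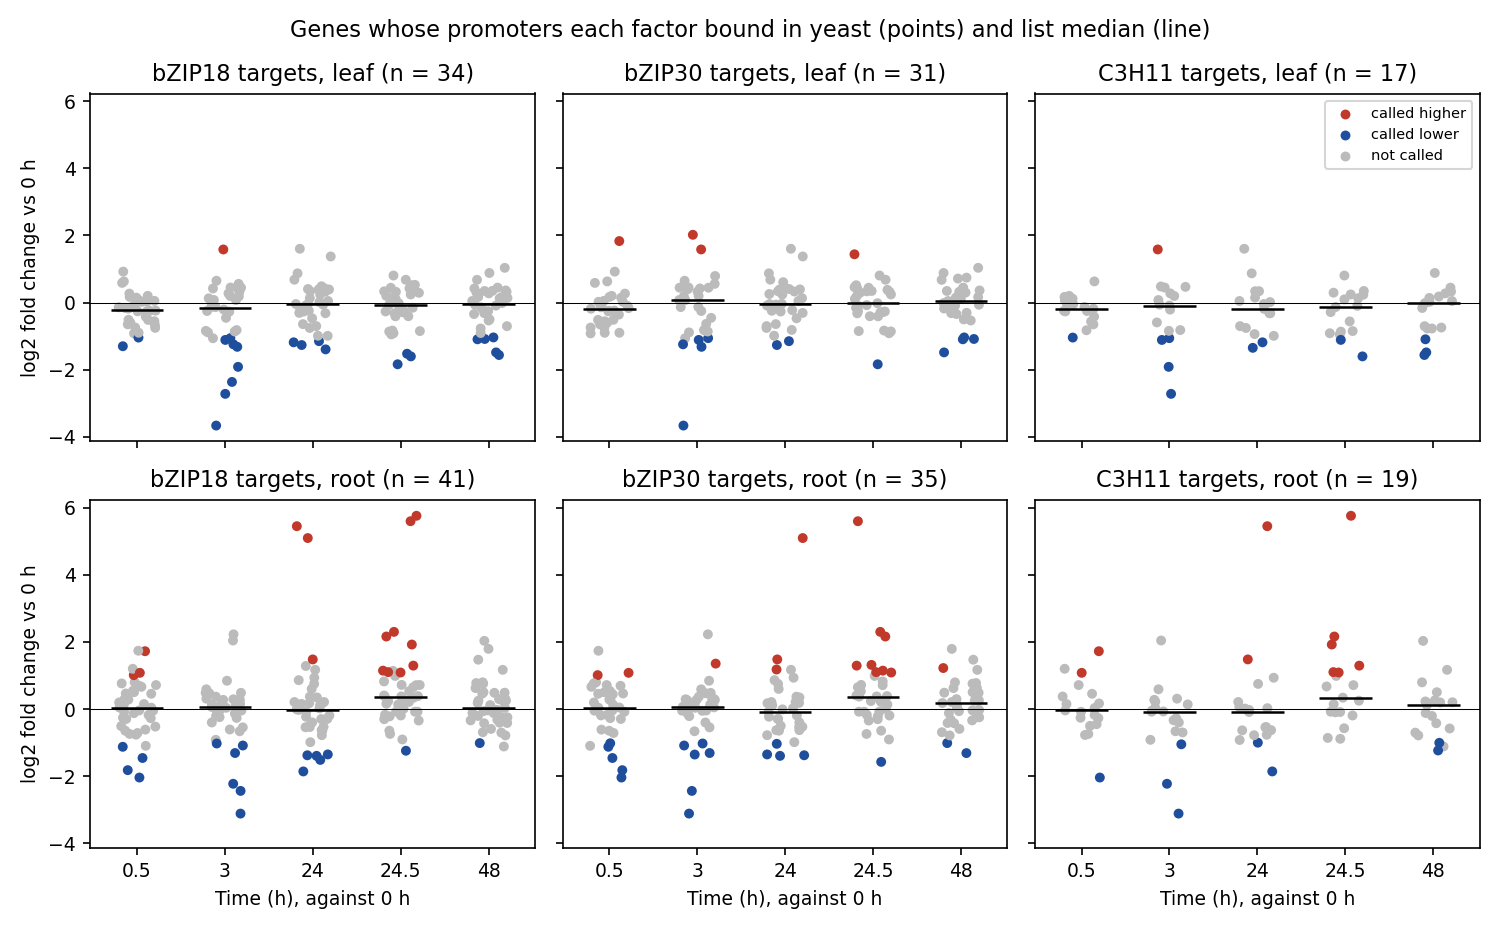
Log2 fold change against 0 h at 5 times in leaf (upper row) and root (lower row) for tested genes whose promoters bZIP18, bZIP30 or C3H11 bound in yeast. Each point is a gene, red called higher, blue called lower and grey not called, and black lines are list medians. In leaf at 3 h 8 of the 34 bZIP18 targets are blue and 1 is red, and in root at 24.5 h 9 of 41 are red and 1 is blue.

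Genes of nitrate reduction were among the targets with the largest decreases. NIR1, which encodes nitrite reductase and whose promoter bZIP18 and C3H11 bound, had 14.4, 7.87 and 10.01 TPM in leaf at 3 h, against 71.1, 74.9 and 77.0 TPM at 0 h. It fell by 2.72 on the log2 scale (limma adjusted p = 1.70e-06). At 0.5 h it already fell in leaf, by 1.04 (adjusted p = 0.0276), with 43.4, 41.6 and 24.9 TPM.

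In root NIR1 had 14.1, 23.6 and 9.35 TPM at 24 h, against 52.5, 60.8 and 54.3 TPM at 0 h, and fell by 1.86 (limma adjusted p = 0.00898). NR2, a nitrate reductase gene bound by all 3 factors, had 4.15, 7.65 and 8.57 TPM in root at 0.5 h and 3.27, 1.89 and 2.71 TPM at 3 h, against 28.6, 33.6 and 28.0 TPM at 0 h. It fell by 2.04 at 0.5 h (adjusted p = 0.00181) and by 3.11 at 3 h (adjusted p = 6.40e-05). In each of these comparisons the groups did not overlap, which can follow from naming the targets with the largest called falls. Ranges lay below those of 0 h for 22.8%, 18.7% and 24.4% of root genes at 0.5, 3 and 24 h.

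Genes of ammonium uptake and assimilation were also among the named targets. AMT1.3, an ammonium transporter gene bound by bZIP18, had 2.18, 2.60 and 3.38 TPM in leaf at 0.5 h and 3.501, 2.02 and 2.04 TPM at 24 h, against 7.33, 9.66 and 7.42 TPM at 0 h, and it fell by 1.299 (limma adjusted p = 0.00553) at the earlier time and fell by 1.39 (adjusted p = 0.00255) at the later. GOGAT2, the glutamate synthase gene whose clone holds the G-box shown above, had 18.9, 31.0 and 24.1 TPM in root at 24 h, against 52.8, 71.0 and 73.7 TPM at 0 h. It fell by 1.39 in root (adjusted p = 0.00204) and was called at no time in leaf.

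High-affinity nitrate transporter genes had the largest increases among the named targets. NRT2.1, bound by bZIP18 and C3H11, had 76.3, 228 and 47.3 TPM in root at 24 h, against 0.733, 1.16 and 1.77 TPM at 0 h, and rose by 5.44 on the log2 scale (limma adjusted p = 0.00851). NRT2.2, bound by bZIP18 and bZIP30, had 40.9, 184 and 21.9 TPM at 24 h, against 0.504, 0.695 and 0.756 TPM at 0 h, and rose by 5.09 (adjusted p = 0.00675). The 24 h libraries lay above those of 0 h for both, as they did for 16.4% of root genes, with replicate 2 the highest.

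The other targets named by the same rule, the largest called rise and fall of each list at 0.5, 3 and 24 h, were spread over several functions. In leaf, HAD2 fell by 3.66 at 3 h (limma adjusted p = 2.01e-08), NRT1.3 fell by 1.26 at 24 h (adjusted p = 0.00266) and SAT2 fell by 1.35 at 24 h (adjusted p = 0.00741). NAC126, a NAC factor gene bound by all 3 factors, rose by 1.58 at 3 h in leaf (adjusted p = 0.0353), and after either rescaling no bZIP18 target was called higher there. In root at 0.5 h, AUF4 rose by 1.08 (adjusted p = 0.00468) and LOG2 by 1.72 (adjusted p = 0.0480), the last with 35.4, 77.0 and 71.0 TPM at 0.5 h, against 56.6, 10.4 and 7.62 TPM at 0 h, which overlap.

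The bZIP and C3H factors of the network, counted here with the 3 genes included, give their setting. Of 29 tested bZIP factors 9 were called in leaf in at least 1 contrast with 0 h (5 without leaf 0 h replicate 3), and of 30 tested in root 9 were called. These are 31.0% and 30% of those tested, beside 17.8% of all leaf genes and 11.2% of all root genes. Of all tested network genes, 22.7% were called in leaf and 30.5% in root. At 3 h in leaf bZIP111, a bZIP30 target that also bound the bZIP18 promoter, had 611, 656 and 617 TPM, against 105, 140 and 248 TPM at 0 h and rose by 2.02 (limma adjusted p = 0.000673). It was higher in root as well at 3 h, with 63.5, 56.6 and 83.6 TPM, against 15.6, 31.3 and 34.2 TPM at 0 h (1.35, adjusted p = 0.00402). Neither bZIP18 nor bZIP30 was among the factors called.

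At 3 h in leaf bZIP112 rose by 1.94, and bZIP104 fell by 1.495 and bZIP93 fell by 1.25 (limma adjusted p of 0.000634 or less). At 3 h in root bZIP15 rose by 1.23, and bZIP40 fell by 2.05 and bZIP12 fell by 1.53 (adjusted p of 0.00769 or less). Among the 5 C3H factors, 3 were tested in leaf and 5 in root, and C3H38 was the factor called at 3 h in leaf, with 2.61, 3.54 and 5.00 TPM, against 1.34, 1.18 and 0.786 TPM at 0 h (1.14, adjusted p = 0.000923).

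Of the 25 factors that bound the bZIP18 promoter, 12 are bZIP factors of the network. In leaf 5 of 20 tested were called in at least 1 contrast with 0 h, and in root 5 of 25 were (8 without root 24.5 h replicate 2). These are 25% and 20%, beside 17.8% of all leaf genes and 11.2% of all root genes. The shares of all tested network genes were 22.7% in leaf and 30.5% in root, the latter above that of the binders. The largest falls among the binders at 3 h in leaf were those of EREB126, which fell by 1.502 (limma adjusted p = 0.000657), and of bZIP104. In root they were those of bZIP12 and of bZIP104, which fell by 1.08 (adjusted p = 7.38e-05).

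The network genes most like each factor over the 18 libraries of a tissue were ranked by Pearson correlation of log2(TPM + 1), which is a description of points that share time points and libraries. In leaf they were, for C3H11, MTERF6 (0.86), AMT1.3 (0.85) and NIR1 (0.81), of which NIR1 is a C3H11 target. For bZIP18 they were ARF22 (0.70), an auxin response factor gene it bound, NRT1.1 (0.67) and bZIP4 (0.64), and for bZIP30 they were bZIP102 (0.88), NF-YA2 (0.75) and bZIP106 (0.69), each among 290 tested network genes.

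In root, among 337 genes, the closest were EREB13 (0.81), UPM1 (0.80) and THX2 (0.78) to C3H11, GDH2 (0.82), ACS6 (0.74) and EREB162 (0.71) to bZIP18, and GATA6 (0.73), HB133 (0.72) and NLP7 (0.72) to bZIP30. GDH2 encodes a glutamate dehydrogenase, UPM1 a methyltransferase of siroheme synthesis, whose product nitrite reductase needs, and NLP7 belongs to the NIN-like proteins, which include the nitrate regulator of that name in Arabidopsis. EREB13 and EREB162 bound the bZIP18 promoter, and ACS6 is a bZIP18 target. Each factor's median correlation with its own targets was compared with its median over all network genes. The target median was lower for bZIP18 in leaf (0.0054 against 0.063) and for bZIP30 in leaf (0.075 against 0.14) and root (0.031 against 0.10). It was higher for bZIP18 in root (0.052 against -0.015) and for C3H11 in leaf (-0.02 against -0.07) and root (0.27 against 0.18). bZIP18 and bZIP30 correlated at 0.57 in leaf and -0.36 in root.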

How the data were processed

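The deposited values are TPM per gene and library in 1 table per tissue, which the authors made, per the study's methods, with STAR on the B73 version 5 genome and StringTie with default settings. Labels and methods differ on library kit, sequencer and nutrient solution. TPM keep no depth, so no detection limit is given.

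Genes with at least 1 TPM in 3 or more libraries of a tissue (23268 in leaf, 26245 in root) were fitted as log2(TPM + 1) in limma 3.58.1 under R 4.3.3, all 18 libraries of a tissue together, the prior variance following the mean. Two-sided tests had Benjamini-Hochberg adjustment over all genes tested. Fold changes on this scale understate changes of low genes. The joint tissue fit was added after the contrasts were seen. The script was tested on simulated data.

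The 3 genes and the lists, taken from the study's yeast one-hybrid network, were chosen with earlier results of these data known. Named genes are the 3 factors, the 3 most correlated network genes of each, the largest called rise and fall of each target list at 0.5, 3 and 24 h, the 2 largest of each family and of the bZIP18 promoter binders at 3 h, and tissue markers. The alternatives changed the pseudocount (0.1 or 5), the filter (none, or a mean of 5 TPM), the scaling (median of ratios or quantiles), the call (p-value limit alone), the prior (robust) and the libraries fitted (only the groups compared, or without each library), or added a replicate block.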

Additional observations from a re-analysis of the deposited data

Results flagged for a closer look

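The leaf and root changes of bZIP18 at 0.5 h against 0 h differed, with a leaf change minus root change of -1.20 on the log2 scale (limma adjusted p = 0.0239); the 3 leaf libraries lay below and the 3 root libraries above their 0 h libraries. The same test separated the tissues for C3H11, with -0.71 at 3 h (adjusted p = 0.000559) and -0.68 at 24.5 h (adjusted p = 0.00316). The joint fit behind these tissue differences was added after the contrasts within each tissue were seen. In root, the change of C3H11 at resupply exceeded its change at withdrawal by 0.80 (adjusted p = 0.00340). Groups held 3 libraries, so no single library was tested as far from its group.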

How the results depend on the processing

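The decreases of C3H11 in leaf at 3, 24, 24.5 and 48 h kept their direction and their side of the p-value limit under every alternative run, as did its difference between resupply and withdrawal in root and its tissue differences at 3 and 24.5 h. Median-of-ratios scaling moved the median change of all leaf genes by -0.20 (3 h), -0.12 (24 h), -0.20 (24.5 h) and -0.24 (48 h) relative to 0 h, and of root genes by -0.11 at 24.5 h against 24 h. The 43 contrasts of the 3 genes with an unadjusted p of 0.05 or more did not pass with all libraries fitted, and 19 of them changed sign in at least 1 setting. The read depth is unknown, so no limit from depth could be given. The causes of the changes below were not tested.

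After median-of-ratios scaling and quantile normalization the root changes of C3H11 were -0.24 and -0.25 at 0.5 h and -0.25 and -0.23 at 24 h, no longer past the limit, and quantile normalization gave 0.32 at 24.5 h against 24 h. Its tissue difference at 48 h was -0.71 and -0.65 after these scalings, past the limit, and its adjusted p also passed with a mean of at least 5 TPM, at an unchanged -0.41, and with a pseudocount of 5, at a smaller -0.38. For bZIP18 in root the scalings gave 0.63 and 0.63 at 0.5 h, past the limit, and 0.55 and 0.499 at 24.5 h against 24 h, no longer past it. With only the groups compared, bZIP18 in root at 0.5 h passed at an unchanged 0.54 (adjusted p = 0.0336), and C3H11 no longer passed at -0.33 for 0.5 h and -0.33 for 24 h in root and 0.33 for 24 h against 3 h in leaf.

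C3H11 in leaf was called past both limits (1 call, main value 0) with a pseudocount of 0.1 and after either scaling. Its root contrasts past the p-value limit numbered 1 after median-of-ratios scaling and 0 after quantile normalization, against 3. By the p-value limit alone, the targets called numbered 18 for bZIP18 in leaf and 16 in leaf and 23 in root for bZIP30, the bZIP18 promoter binders 12 in root and the bZIP factors 18 in root. The binders called in leaf numbered 3 with a mean of at least 5 TPM and 2 with a pseudocount of 5, which also left 4 bZIP factors in leaf.

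Within each tissue, replicate numbers did not consistently pair libraries across time points. Whether leaf and root libraries came from the same plants was not checked, and the joint fit treats them as independent. Deviations of same-numbered libraries correlated from -0.26 to 0.45 in leaf and from -0.35 to 0.19 in root, and 6 of 18 leaf and 5 of 18 root libraries correlated best with their own number. With a replicate block, calls over all genes and the 5 contrasts with 0 h numbered 7019 in leaf and 4961 in root, against 7028 and 4997 without it. Under the block C3H11 missed the p-value limit for 24 h against 3 h in leaf (0.33, adjusted p = 0.0571), and in root for 0.5 h (-0.33, adjusted p = 0.0646) and 24 h (-0.33, adjusted p = 0.0529), which left 1 root contrast past it.

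Leaving out 1 library at a time gave these ranges for results that changed side in at least 1 case. For C3H11 they were -0.47 to -0.41 in leaf at 0.5 h, 0.26 to 0.40 in leaf for 24 h against 3 h, -0.40 to -0.26 in root at 0.5 h, -0.44 to -0.25 in root at 24 h, and -0.49 to -0.33 for the tissue difference at 48 h. For bZIP18 they were -1.35 to -1.03 for the tissue difference at 0.5 h, -0.72 to -0.36 in leaf for 24 h against 3 h, and in root 0.46 to 0.61 at 0.5 h, -0.53 to -0.34 for 24 h against 3 h, 0.64 to 0.70 for 24.5 h against 24 h and 0.34 to 0.83 for 48 h against 24 h. F ranged from 3.55 to 5.44 in leaf and 3.74 to 15.1 in root for bZIP18, and from 1.93 to 4.65 in leaf for bZIP30. Contrasts past the p-value limit numbered 0 to 1 for bZIP18 in leaf, 0 to 6 for bZIP18 in root and 1 to 3 for C3H11 in root, and calls past both limits in leaf 0 to 1. The bZIP factors called in leaf numbered 5 to 10, and the binders called in root 5 to 8.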
